A study of Mus musculus with 6 samples.

Results

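The core autophagy machinery was followed as 36 genes, chosen by symbol for the proteins that start, extend, close and fuse autophagosomes, in the livers of 3 WT and 3 Vps15LKO mice. All 36 were found among the 56305 Ensembl genes of a table of normalised read counts, and 35 of them reached at least 20 normalised counts in at least 3 of the 6 livers and were tested. Vps15LKO mice (AlbCre+;Vps15 f/f) lack intact Vps15, the regulatory subunit of class 3 PI3K encoded by Pik3r4, where Cre is made from the albumin promoter, which is active in hepatocytes. The recombined locus can still give a truncated product. The labels call the control mice WT and do not give the alleles that these carried. Both genotypes were males of 5 weeks, fed ad libitum under a light–dark cycle and killed at Zeitgeber time 6 (ZT6), that is 6 h after lights on, and each liver gave 1 RNA-Seq library. The replicate numbers name separate mice.

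In autophagy, a double membrane grows around cytoplasm, closes into an autophagosome and fuses with a lysosome, where the content is degraded. The Ulk kinase complex starts the process, class 3 PI3K makes the lipid PI3P on the nascent membrane, Atg9 vesicles and lipid transfer proteins feed its growth, and a pair of ubiquitin-like conjugation systems attach the Atg8 proteins (the LC3 and GABARAP families) to phosphatidylethanolamine. SNARE proteins then drive fusion. In liver, autophagy supplies amino acids and lipids during fasting and removes damaged organelles, and class 3 PI3K acts inside the pathway, upstream of the PI3P effectors. The values below are transcript levels and do not measure autophagic flux.

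The libraries held between 16137093 and 18110223 reads on genes, but the size factors by which the authors divided the counts ranged from 0.742 to 0.801 for the WT and from 1.23 to 1.41 for the Vps15LKO livers. A gene that took the same share of the reads in both genotypes therefore has a lower normalised count in Vps15LKO livers. When the reads were instead scaled to equal totals, the median log2 fold change of the 15430 genes tested moved by 0.72, from -0.02 to 0.70, and the counts of each group below are also given on that second scale (total-read scaling), with its value for the members that are given liver by liver and were called. Fold changes are Vps15LKO relative to WT on log2(normalised count + 1), from limma over all tested genes, and calls required a fold of at least 1.2 with an adjusted p below 0.05. For a single gene, 3 livers against 3 allow no exact permutation p below 0.1.

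With the authors' scaling, transcripts of most of the machinery were lower in the livers of Vps15LKO mice, and with total-read scaling they lay on both sides of WT. Of the 35 genes tested, 25 (71.4%) were called lower and 0 were called higher, whereas 33.0% of all tested genes were called lower and 33.5% higher (66.5% in either direction). At an unadjusted p below 0.05, 0 members were higher and 26 lower in limma. edgeR called 23 members lower, DESeq2 25 and limma voom 24, with 0 called higher and 0 higher at an unadjusted p below 0.05 in each. The 35 log2 fold changes lay between -1.67 and 0.03 with a median of -0.50, and 28 members had all 3 Vps15LKO livers below all 3 WT livers, against 36.8% of all tested genes (73.2% without overlap in either direction). The 6 members that fell by more than 1 on the log2 scale were Gabarapl1, Atg3, Atg9a, Ulk2, Atg13 and Ulk1. With total-read scaling the members split instead, with 6 called lower, 15 called higher and a median of 0.22, while 11.1% of all tested genes were called lower and 66.7% higher on that scale. The 6 called lower on both scales were Gabarapl1, Atg3, Atg9a, Ulk2, Atg13 and Atg5. The other members called lower divided into 14 without a call and 5 that were higher with total-read scaling. The members together held 0.206% to 0.208% of all reads in the WT and 0.215% to 0.219% in the Vps15LKO livers.

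**Figure D1:**
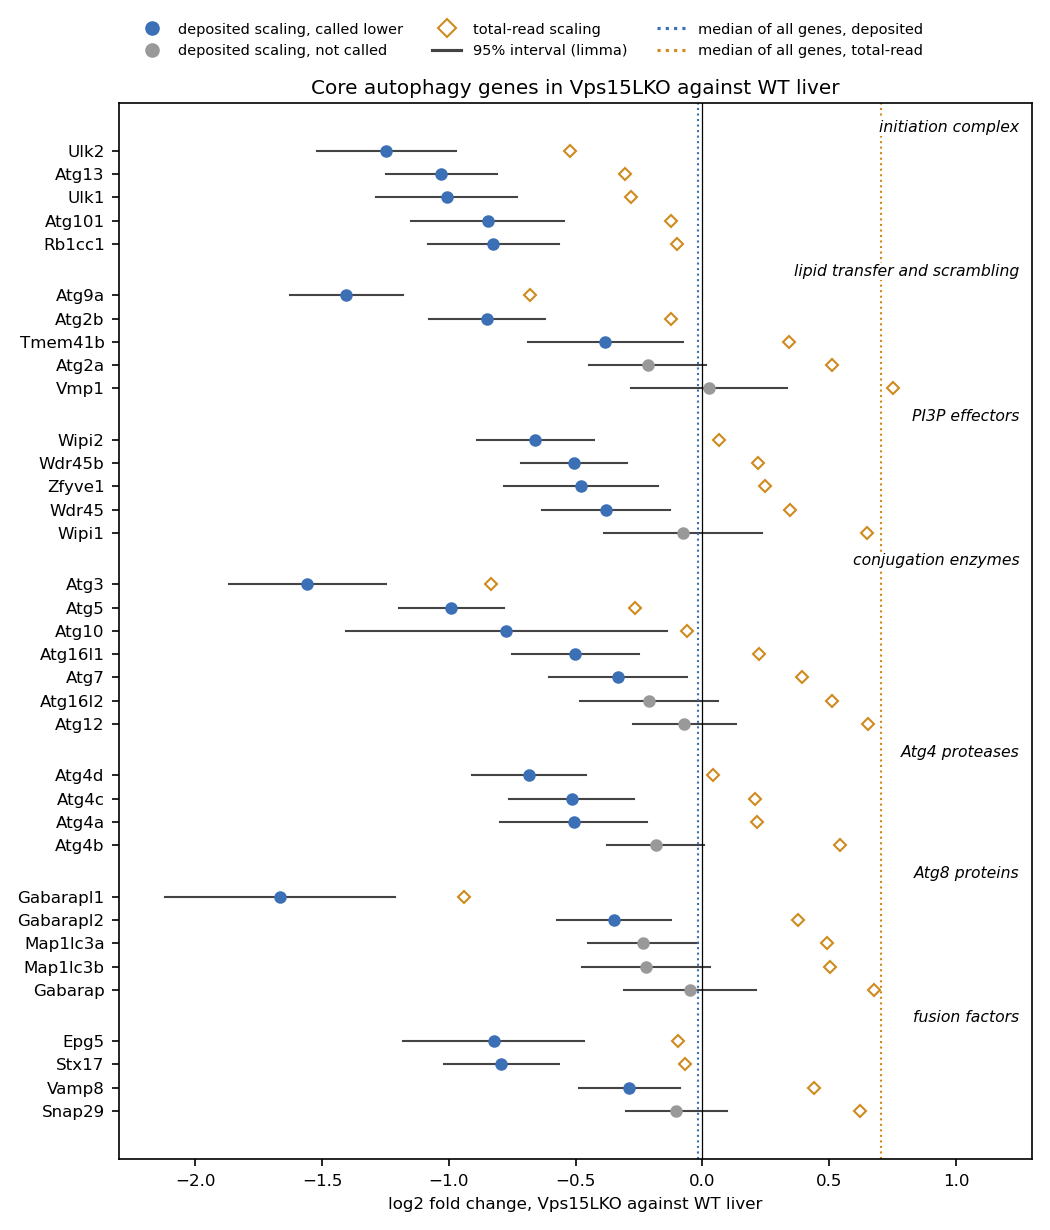
Log2 fold change (Vps15LKO relative to WT, horizontal axis) of each of the 35 tested members, one row a gene, grouped by role, with circles for the deposited scaling (blue called lower, grey not called), lines for its 95% confidence interval, diamonds for total-read scaling and dotted lines for the medians of all tested genes. With the deposited scaling 34 of 35 circles lie below 0 and Gabarapl1 at -1.67 is the lowest, and with total-read scaling the diamonds lie on both sides of 0.

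Marker transcripts of the cell types of the liver also differed between genotypes. Of 12 hepatocyte markers, 11 were called lower on both scales. The summed level of the 12 ran from 2940040 to 3502640 normalised counts in WT and from 817299 to 1254740 in Vps15LKO livers. Most of this sum was Alb, the marker without a call (-1.48, limma adjusted p = 0.37). Alb had 2350420, 2169880 and 2030860 in WT and 786995, 968935 and 620735 in Vps15LKO livers. All 10 markers of stellate cells and fibroblasts, all 8 of cholangiocytes, all 10 of dividing cells, 13 of 15 of macrophages and 6 of 8 tested of lymphocytes were called higher on the scale of normalised counts, while 5 of 10 endothelial markers were lower and 5 higher. With total-read scaling the counts of higher markers were 10, 8, 10, 14 and 7 in that order, and of the endothelial markers 0 were lower and 7 higher. Of all tested genes, 33.0% were called lower and 33.5% higher with the authors' scaling, and 11.1% and 66.7% with total-read scaling. The share of higher endothelial markers on that second scale is near that of all genes. The summed macrophage markers ran from 10732 to 12444 in WT and from 38088 to 41986 in Vps15LKO livers, those of stellate cells and fibroblasts from 7095 to 7597 and from 30561 to 36135, those of cholangiocytes from 714 to 848 and from 11795 to 22979, those of dividing cells from 159 to 530 and from 3517 to 3840, those of lymphocytes from 233 to 361 and from 1052 to 1155, and those of endothelial cells from 8657 to 9487 and from 7038 to 8992. In the cholangiocyte sum Spp1 alone had 562, 493 and 599 normalised counts in WT and 13401, 10402 and 20496 in Vps15LKO livers, so it made most of that sum. No marker of these lists was at 0 in all livers of a genotype. The part of these cell types in the members' values was not tested, and in whole liver fewer cells of a type and less RNA per cell cannot be told apart.

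The initiation complex was the group with the lowest median. Ulk1 and Ulk2 are its kinases, Atg13 and Rb1cc1 (FIP200) its scaffold, and Atg101 holds Atg13 in place. All 5 genes were called lower, with a median log2 fold change of -1.01, and with total-read scaling their median was -0.28, with Ulk2 and Atg13 still called lower. Ulk2 (chromosome 11 of GRCm38, 61775649 to 61855073, minus strand) had 1966, 2123 and 2402 normalised counts in WT and 893, 1037 and 809 in Vps15LKO livers. The groups lay far apart, and the log2 fold change was -1.25 ± 0.12 (SE, n = 3 per genotype, limma adjusted p = 3.7e-05; -0.52 with total-read scaling). Ulk1 (chromosome 5, 110784488 to 110810097, minus strand) had 2680, 3213 and 3321 in WT and 1552, 1675 and 1348 in Vps15LKO livers, again without overlap (-1.01 ± 0.12, adjusted p = 0.00012; -0.28 with total-read scaling, not called). Atg13 (chromosome 2, 91674618 to 91710576, minus strand) was even within each genotype, with 1521, 1564 and 1694 in WT and 778, 848 and 717 in Vps15LKO livers (-1.03 ± 0.10, adjusted p = 3.1e-05; -0.30 with total-read scaling). Rb1cc1 fell by 0.82 and Atg101 by 0.85 on the log2 scale, and with total-read scaling these were -0.10 and -0.12 and not called.

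Downstream of the Ulk complex, the proteins that supply lipid differed among themselves. Atg9 proteins are scramblases in the vesicles that seed the membrane, Atg2 proteins are lipid channels from the endoplasmic reticulum, and Vmp1 and Tmem41b are scramblases of the endoplasmic reticulum. Of the 5 tested genes, 3 (Atg9a, Atg2b and Tmem41b) were called lower, and with total-read scaling 1 was lower and 3 were higher. Atg9a (chromosome 1, 75180860 to 75192196, minus strand) had 2246, 2171 and 2027 normalised counts in WT and 787, 896 and 754 in Vps15LKO livers. The highest Vps15LKO liver was far below the lowest WT liver, and the log2 fold change was -1.40 ± 0.10 (adjusted p = 7.1e-06; -0.68 with total-read scaling). Its paralog Atg9b was close to the limit of detection, with 5.30, 9.99 and 21.6 in WT and 17.6, 18.6 and 17.0 in Vps15LKO livers, and was not tested. Atg2b had 667, 759 and 693 in WT and 399, 417 and 360 in Vps15LKO livers (-0.85 ± 0.10, adjusted p = 0.0001; -0.12 with total-read scaling, not called), whereas Atg2a had 1771, 1962 and 2046 against 1722, 1751 and 1505 and was not called (-0.22, 95% confidence interval -0.45 to 0.01). Vmp1 was the member with the highest fold change at 0.03 (interval -0.28 to 0.33), its WT livers at 2286, 1633 and 2091 enclosing the Vps15LKO livers at 2096, 2121 and 1852. It was called higher with total-read scaling (0.75) and with quantile normalisation (0.46). Tmem41b fell by 0.38 (0.34 with total-read scaling, called higher), a call that was lost without WT replicate 1 (-0.27), without Vps15LKO replicate 1 (-0.34) and without Vps15LKO replicate 3 (-0.35).

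PI3P, the product of class 3 PI3K, is read by the WIPI proteins and by the FYVE domain protein Zfyve1 (DFCP1). Wipi2 brings the Atg16l1 complex to the membrane, and the Wdr45 proteins bind Atg2. Of these 5 genes, 4 were called lower, with a median of -0.48, and with total-read scaling 0 were lower and 2 higher (Wipi1 and Wdr45). Wipi2 had 1350, 1410 and 1392 normalised counts in WT, the closest set of values in this group, and 825, 996 and 818 in Vps15LKO livers. No value overlapped, and the log2 fold change was -0.66 ± 0.10 (adjusted p = 0.00046; 0.07 with total-read scaling, not called). Wdr45b fell by 0.50, Zfyve1 by 0.48 and Wdr45 by 0.38 on the same scale. Wipi1 had 440, 428 and 577 in WT against 422, 436 and 504 in Vps15LKO livers, so the groups overlapped, and the fold change was -0.08 (interval -0.39 to 0.24).

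**Figure D2:**
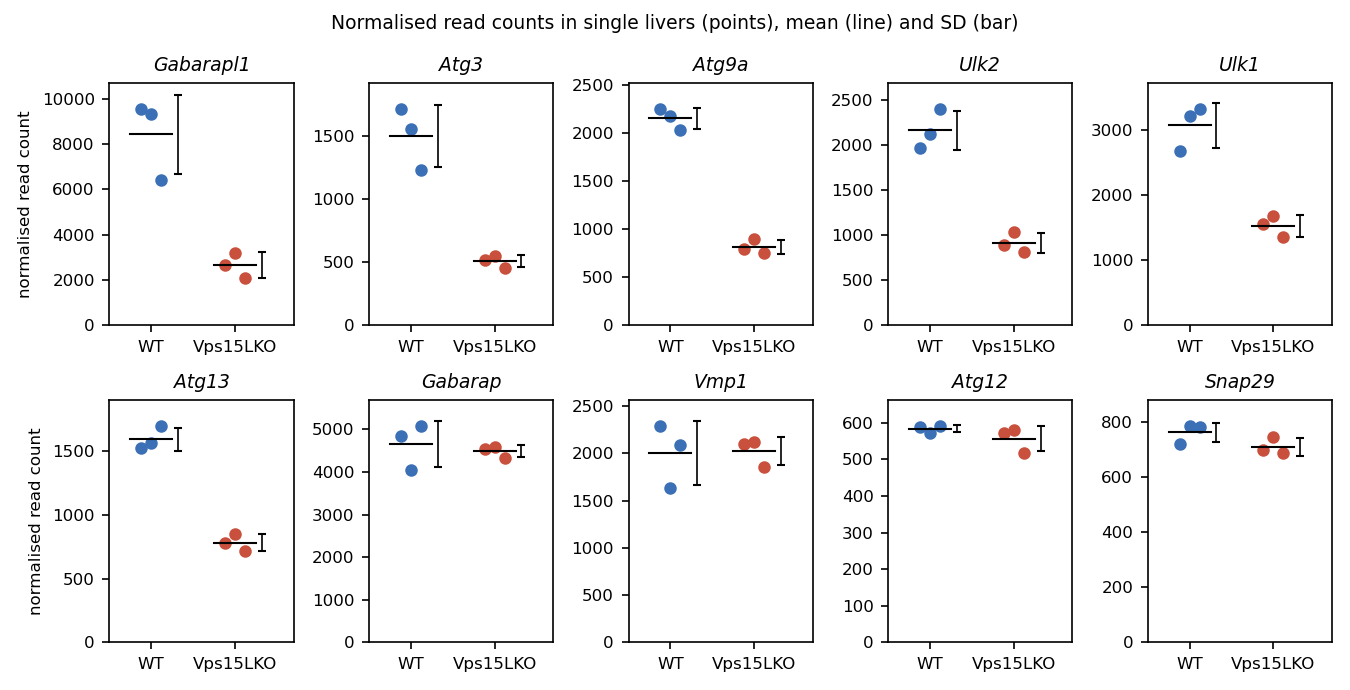
Normalised read count (vertical axis, from 0) in each of the 6 livers for 10 members, one panel a gene, with points for single livers, horizontal lines for the mean and bars for the SD of 3 livers per genotype. For Gabarapl1, Atg3, Atg9a, Ulk2, Ulk1 and Atg13 every Vps15LKO liver lies below every WT liver, and for Gabarap, Vmp1, Atg12 and Snap29 the genotypes overlap.

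The conjugation systems were lower in part. Atg7 is the shared E1-like enzyme, Atg3 and Atg10 are the E2-like enzymes for the Atg8 proteins and for Atg12, Atg12 is the ubiquitin-like protein joined to Atg5, and Atg16l1 and its relative Atg16l2 bind the Atg12–Atg5 conjugate. Of the 7 genes, 5 were called lower, with a median of -0.50, and with total-read scaling 2 were lower (Atg3 and Atg5) and 3 higher. Atg3 (chromosome 16, 45158785 to 45188538, plus strand) had 1710, 1553 and 1231 normalised counts in WT and 512, 549 and 453 in Vps15LKO livers. The lowest WT liver was above the highest Vps15LKO liver by a wide margin, and the log2 fold change was -1.56 ± 0.14 (adjusted p = 2.2e-05; -0.83 with total-read scaling). Atg5 (chromosome 10, 44268358 to 44364291, plus strand) had 1020, 1043 and 942 in WT and 504, 533 and 475 in Vps15LKO livers, again without overlap (-0.99 ± 0.09, adjusted p = 2.7e-05; -0.26 with total-read scaling). Its partner Atg12 had 589, 572 and 590 against 573, 579 and 516, so the genotypes overlapped, and the fold change was -0.07 (interval -0.27 to 0.13). Atg16l1 fell by 0.50, and Atg16l2 was not called (-0.21, interval -0.48 to 0.06), except with quantile normalisation, where it was lower (-0.43). Atg7 fell by 0.33 (adjusted p = 0.034; 0.39 with total-read scaling, called higher), with 1226, 1102 and 919 in WT and 826, 915 and 820 in Vps15LKO livers, so that the lowest WT and the highest Vps15LKO liver nearly met. Atg10 was low, with 69.0, 73.7 and 67.4 in WT and 56.5, 25.9 and 45.3 in Vps15LKO livers (-0.77 ± 0.28, adjusted p = 0.035; -0.06 with total-read scaling, not called). The calls for this last pair were close to the threshold, and Atg7 kept its call in 2 and Atg10 in 1 of the 6 fits that left out 1 liver, over which Atg7 ran from -0.45 to -0.24 and Atg10 from -1.01 to -0.46. The count of 5 called conjugation genes was 3 without WT replicate 1, without WT replicate 2 or without Vps15LKO replicate 3.

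The 5 promoter motifs looked for in the members are bound by factors known to act on autophagy, lysosomal or clock genes. Bmal1 and Clock bind the E-box, which is of interest here because the study followed the clock in these livers. RefSeq promoters (GRCm38.p6, 250 bases before to 50 after the start) were matched for 30 of the 36 members and searched on both strands, counting a gene once if any of its promoters held the motif. The E-box CACGTG was in the promoter of 3 of 30 members (10%; Atg3, Atg5 and Atg7), near its share of 8.09% among 27025 genes. The Atg7 window lies inside the GENCODE gene, at a start downstream of its first one. The CLEAR motif of the Tfeb family, which contains the E-box, was in 0 members and 0.370% of genes, the ATF4 element TGATGNAA in 0 and 4.51%, the forkhead element TGTTTAC in 0 and 4.05%, and the antioxidant response element TGACNNNGC in 5 (16.7%; Atg13, Map1lc3b, Ulk2, Vmp1 and Zfyve1) and 13.99%. The promoters of Atg3 (chr16:45158579-45158878), Atg5 (chr10:44268089-44268388) and Gabarapl1 (chr6:129532942-129533241), all on the plus strand, are shown with the E-box in capitals. They were picked from the 6 members called lower on both scales. The others of these, Atg9a, Ulk2 and Atg13, are not shown and hold no E-box, while Ulk2 and Atg13 hold the antioxidant response element. Atg3 has one at 94 and one at 71 bases before its start, Atg5 has 1 at 14 bases before its start, and the window of Gabarapl1, the member that fell most, holds none of the 5 motifs. These matches are letters in a window, and binding was not measured here.
Atg3: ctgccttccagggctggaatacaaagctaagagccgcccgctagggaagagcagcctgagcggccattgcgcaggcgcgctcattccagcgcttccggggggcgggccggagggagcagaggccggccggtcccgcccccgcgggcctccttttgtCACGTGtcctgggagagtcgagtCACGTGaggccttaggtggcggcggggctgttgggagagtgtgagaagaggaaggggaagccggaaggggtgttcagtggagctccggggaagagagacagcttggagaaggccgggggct
Atg5: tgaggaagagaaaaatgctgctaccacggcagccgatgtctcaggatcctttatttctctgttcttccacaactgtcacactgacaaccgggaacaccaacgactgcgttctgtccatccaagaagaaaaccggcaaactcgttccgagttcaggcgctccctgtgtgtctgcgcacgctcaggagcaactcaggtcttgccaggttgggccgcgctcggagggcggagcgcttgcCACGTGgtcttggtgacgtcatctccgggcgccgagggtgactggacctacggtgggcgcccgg
Gabarapl1: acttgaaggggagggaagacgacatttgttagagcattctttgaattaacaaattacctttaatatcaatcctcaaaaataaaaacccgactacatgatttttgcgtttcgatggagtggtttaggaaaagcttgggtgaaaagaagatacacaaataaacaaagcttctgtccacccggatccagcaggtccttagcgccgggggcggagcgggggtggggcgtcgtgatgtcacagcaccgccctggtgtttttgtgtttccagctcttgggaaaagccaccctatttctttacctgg

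The Atg4 proteases trim Atg8 proteins before conjugation and release them from membranes afterwards. Atg4a, Atg4c and Atg4d were called lower, and Atg4b was not (-0.18, interval -0.37 to 0.01). Their median was -0.51, and with total-read scaling 0 were lower and Atg4b was higher. Atg4d had 638, 626 and 625 normalised counts in WT, a coefficient of variation of 1.11% and the lowest of all members, and 360, 383 and 436 in Vps15LKO livers. The log2 fold change was -0.68 ± 0.10 (adjusted p = 0.00034; 0.04 with total-read scaling). Atg4c fell by 0.52 and Atg4a by 0.51.

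Among the Atg8 proteins, which recruit cargo receptors and mark the autophagosome, 1 gene stood apart from the rest. Gabarapl1 (chromosome 6, 129533160 to 129542346, plus strand) had 9543, 9336 and 6418 normalised counts in WT and 2664, 3202 and 2094 in Vps15LKO livers. WT replicate 3 was the lowest WT liver and still held more than every Vps15LKO liver. The log2 fold change of -1.67 ± 0.20 (adjusted p = 0.00012; -0.94 with total-read scaling) ran from -1.85 to -1.51 when 1 liver was left out. Gabarapl2 fell by 0.35 (0.38 with total-read scaling, called higher). Gabarap had 4841, 4056 and 5077 in WT and 4537, 4596 and 4324 in Vps15LKO livers and was not called (-0.05, interval -0.31 to 0.21). Map1lc3b, the gene of the LC3 protein most often used as a marker of autophagosomes, had 2700, 2360 and 2120 in WT and 2031, 1946 and 2154 in Vps15LKO livers, where the groups overlapped (-0.22, interval -0.47 to 0.03), and without WT replicate 3 it was called lower (-0.31) while with quantile normalisation it was at 0.24. Map1lc3a was not called either (-0.24, adjusted p = 0.054). With total-read scaling 1 of the 5 Atg8 genes was lower and 4 were higher, and with quantile normalisation Gabarap was called higher (0.64).

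On a scale per length, the reads per kilobase of exon relative to the library's total (RPKM), Gabarapl1 was the most abundant member in WT liver at 184 ± 33 (SD, n = 3) and Gabarap came next at 112 ± 15. In Vps15LKO livers Gabarap was at 178 ± 7.0 and Gabarapl1 at 95.5 ± 14, so the order of the pair was inverted. Of the summed RPKM of the 5 Atg8 genes, Gabarapl1 made 55.5%, 58.8% and 45.7% in WT and 28.4%, 31.8% and 24.1% in Vps15LKO livers. Gabarap made 30.7%, 27.9% and 39.5% and then 52.8%, 49.8% and 54.3%. These shares were chosen after the values were seen, do not depend on the size factors and are given without a test. Most other members lay well below, with Vamp8 at 33.8, Map1lc3a at 23.7, Vmp1 at 22.9, Ulk1 at 21.0, Atg3 at 20.9 and Atg5 at 18.8 in WT livers, and Atg9b was the lowest at 0.140.

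**Figure D3:**
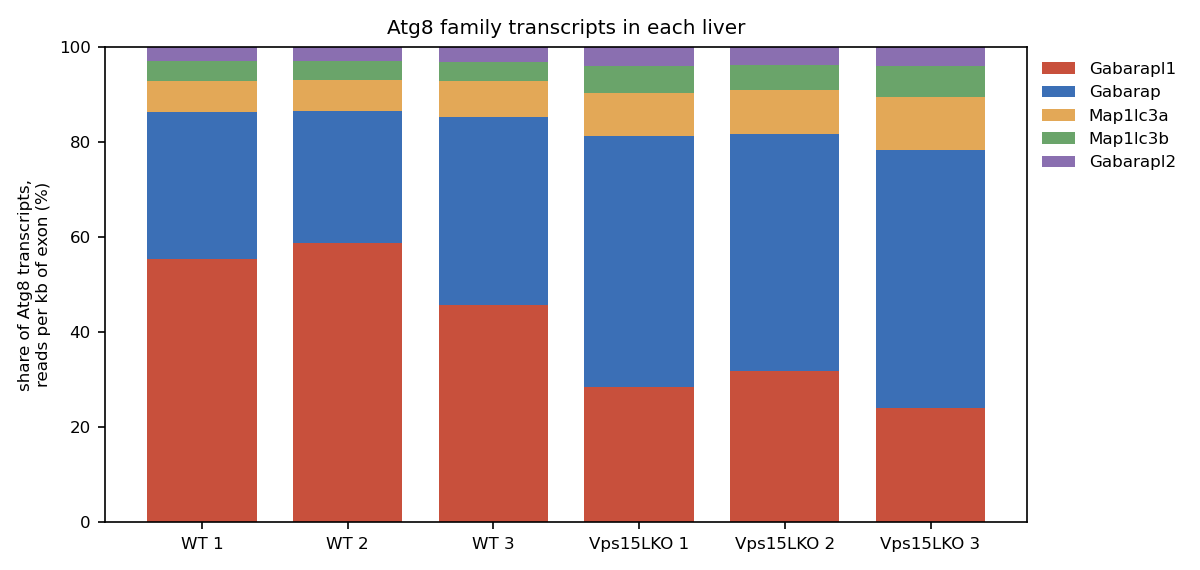
Share of the summed RPKM of the 5 Atg8 genes (percent, vertical axis) taken by each gene in each of the 6 livers (stacked bars, horizontal axis). The Gabarapl1 segment covers 45.7% to 58.8% in WT and 24.1% to 31.8% in Vps15LKO livers, and the Gabarap segment is the tallest in every Vps15LKO liver.

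Fusion with the lysosome uses the SNARE proteins Stx17, Snap29 and Vamp8 and the tether Epg5. Of the 4 genes, 3 were called lower, with a median of -0.54, and with total-read scaling 0 were lower and 2 higher (Snap29 and Vamp8). Stx17 had 554, 582 and 609 normalised counts in WT and 348, 353 and 306 in Vps15LKO livers. The genotypes did not overlap (-0.79 ± 0.10, adjusted p = 0.00014; -0.07 with total-read scaling, not called). Epg5 had 540, 719 and 619 against 344, 425 and 296 (-0.82 ± 0.16, adjusted p = 0.0016; -0.10 with total-read scaling, not called). Vamp8, with 1903, 1701 and 1703 against 1426, 1468 and 1447, fell by 0.29 (0.44 with total-read scaling, called higher). That call was lost without WT replicate 1 (-0.23), without Vps15LKO replicate 1 (-0.28), with edgeR, limma voom and TMM scaling (-0.24 in each), with upper-quartile scaling (-0.16) and with quantile normalisation (0.0770). Snap29 had 721, 786 and 782 against 699, 746 and 687 and was not called (-0.10, interval -0.30 to 0.10).

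Ratios of paralogs within a liver hardly depend on the size factor unless a gene is as low as Atg9b, since 1 was added to each count, and 12 pairs were compared. In 9 of the 12 the ratios of the genotypes did not overlap, a share close to the 73.2% of single tested genes without overlap in either direction, each with an exact permutation p of 0.1 (two-sided), the smallest that 3 livers against 3 can give, and 0.133 after Benjamini–Hochberg adjustment over the 12 pairs. The largest shift among pairs well above detection was that of Gabarapl1 to Gabarap, with log2 ratios of 0.98, 1.2 and 0.34 in WT and -0.77, -0.52 and -1.05 in Vps15LKO livers, a difference of -1.62. The ratio of Gabarapl1 to Gabarapl2 differed by -1.32. Relative to Atg2b, Atg2a was higher by 0.63 in Vps15LKO livers (1.45 ± 0.10 in WT and 2.08 ± 0.03 in Vps15LKO, SD), the difference that was largest against the spread between livers. Wipi1 to Wipi2 differed by 0.58, Vmp1 to Tmem41b by 0.41, Atg16l2 to Atg16l1 by 0.29, Ulk1 to Ulk2 by 0.24 and Atg4a to Atg4b by -0.32, and Atg9b to Atg9a by 2.09, a value that rests on 4 to 24 reads of Atg9b per liver. The ratios of Atg4c to Atg4d (0.17, p = 0.2 in the exact test), Wdr45 to Wdr45b (0.13, exact p = 0.4) and Map1lc3a to Map1lc3b (-0.01, exact p = 0.8) overlapped between genotypes.

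**Figure D4:**
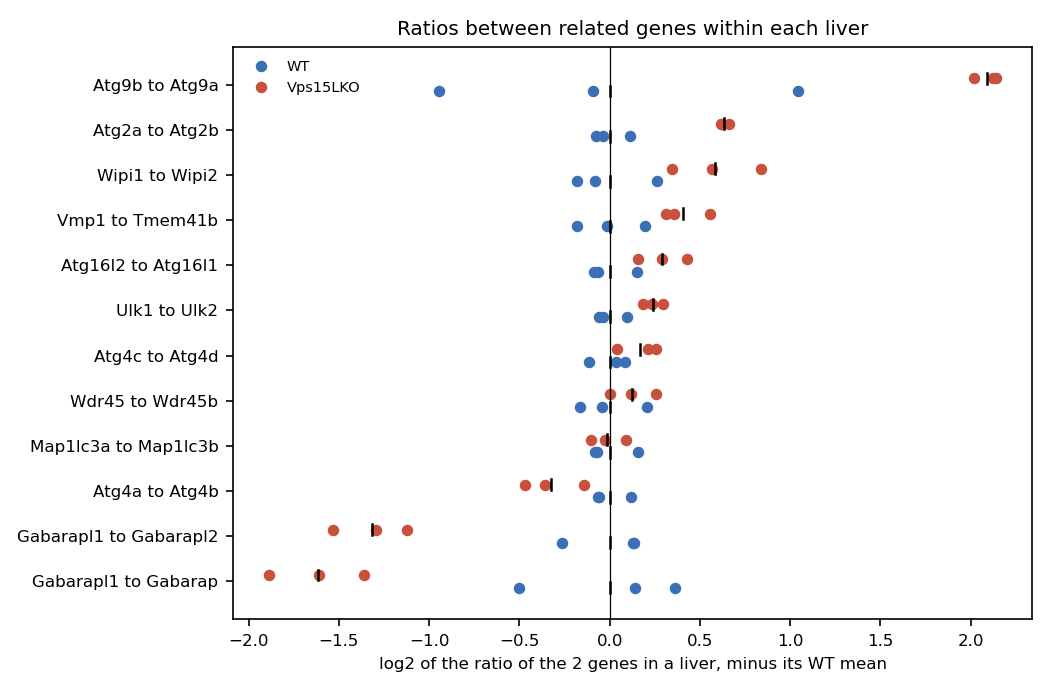
Log2 ratio of the normalised counts of 2 related genes in each of the 6 livers, minus the mean ratio of the WT livers (horizontal axis), for 12 pairs, with points for single livers and vertical marks for the mean of 3 livers per genotype. The genotypes are apart in 9 pairs, with Vps15LKO means from -1.62 for Gabarapl1 to Gabarap to 2.09 for Atg9b to Atg9a, and overlap for Atg4c to Atg4d, Wdr45 to Wdr45b and Map1lc3a to Map1lc3b.

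Pathway genes next to the core machinery moved in both directions. Of 52 genes in 4 lists 50 were tested, and 26 were called lower and 7 higher, against 2 lower and 33 higher with total-read scaling. Beside this, 33.0% of all tested genes were lower and 33.5% higher, and 11.1% and 66.7% with total-read scaling, so the share of higher pathway genes on that second scale is near that of all genes. In the class 3 PI3K complexes, 5 of 8 tested genes were lower and 0 higher (0 lower and 4 higher with total-read scaling). Pik3r4 had 508, 573 and 460 normalised counts in WT and 341, 362 and 355 in Vps15LKO livers, fully apart (-0.54 ± 0.11, adjusted p = 0.0021), although with total-read scaling it was at 0.19 and not called. Reads from the exons that stay in the recombined locus, and reads from liver cells that do not make Cre, count towards this value and were not separated. Atg14, the subunit that directs the complex to autophagosomes, fell most in this list, with 406, 386 and 336 in WT and 221, 211 and 200 in Vps15LKO livers (-0.83 ± 0.11, adjusted p = 0.00023; -0.10 with total-read scaling).

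Of the 16 cargo receptors, 11 were lower and 2 higher (2 lower and 9 higher with total-read scaling). Sqstm1, which links ubiquitinated cargo to Atg8 proteins, rose from 10952, 10595 and 9025 normalised counts in WT to 19129, 18332 and 18299 in Vps15LKO livers. This was a rise on both scales (0.87 ± 0.14, adjusted p = 0.00056; 1.60 with total-read scaling). Fundc1, a mitophagy receptor, rose most in the list (0.93 ± 0.15, adjusted p = 0.00068; 1.65 with total-read scaling), from 135, 130 and 124 to 260, 201 and 289. Bnip3, another mitophagy receptor, fell most, from 3852, 3560 and 2921 to 1192, 1201 and 984 (-1.61 ± 0.13, adjusted p = 1.5e-05; -0.88 with total-read scaling).

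The 16 upstream kinases and transcription factors held 8 lower and 3 higher genes (0 lower and 10 higher with total-read scaling). Stk11 (Lkb1), which activates AMPK, fell by 0.83 (-0.10 with total-read scaling), and Prkaa1, a catalytic subunit of AMPK, rose by 0.56 on the log2 scale (1.28 with total-read scaling). Of 10 tested autophagosome–lysosome tethers, 2 were lower and 2 higher (0 lower and 10 higher with total-read scaling), and Vamp7 was listed at 0 in all 6 livers. The count of 2 lower tethers (Ykt6 and Vps33a) was 0 without Vps15LKO replicate 1 and 1 when any other single liver was left out. Tecpr1, a tether that binds the Atg12–Atg5 conjugate, rose by 0.75 (1.48 with total-read scaling), and Ykt6, a SNARE protein of autophagosomes, fell by 0.27 (0.45 with total-read scaling, called higher), but was not called with DESeq2 (-0.25), edgeR, limma voom or TMM scaling (-0.23 in each), upper-quartile scaling (-0.15) or quantile normalisation (-0.011). The median log2 fold change was 0.03 for the tethers and -0.50 for the core members, and this difference was not tested.

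**Figure D5:**
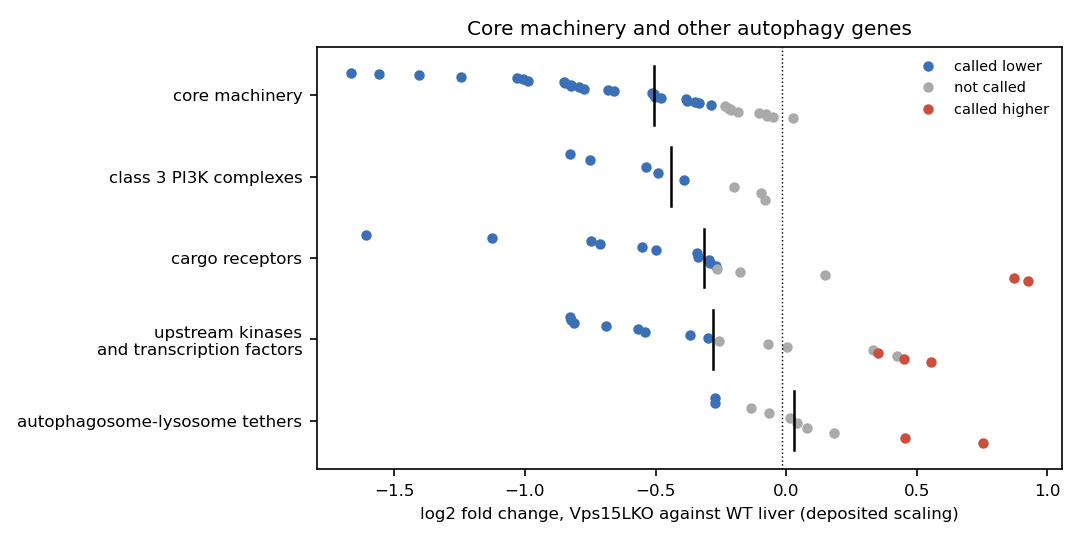
Log2 fold change with the deposited scaling (Vps15LKO relative to WT, horizontal axis) of every tested gene of the core machinery and of the 4 pathway lists, 1 point a gene, coloured by call (blue lower, grey not called, red higher), with a vertical bar for the median of each list and a dotted line for the median of all tested genes. The core machinery holds 25 lower and 0 higher calls around a median of -0.50, and the pathway lists hold 26 lower and 7 higher calls.

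Several members share sequence with other genes, and whether the counting used strand, or reads that map to several places, was not given in the sources used here. Atg9a shares 1832 exonic bases on the same strand with Gm29253, which also fell (-1.34), and Wdr45 shares 818 with Gm45208 (-0.27). On the opposite strand, Gabarapl1 shares 570 bases with 1700101I11Rik, which fell by 1.69, Rb1cc1 shares 558 with 4732440D04Rik, which was not called (-0.77), Atg4d shares 1405 with Kri1, which was not called (-0.03), Atg2b shares 383 with Gskip, which rose by 0.74, and Atg9b shares 294 with Nos3, which was called higher and had 56 to 274 reads per liver. Reads from these overlaps cannot be assigned to 1 gene of the pair without the strand setting, or at all where the strand is the same. Near-identical copies elsewhere in the genome, of at least 100 bases at 97% identity, included the pseudogene Atg4a-ps for Atg4a (2115 bases, 19 to 34 reads per liver beside 128 to 180 on Atg4a), Gm6055 for Map1lc3b (378 bases, 75 to 151 reads beside 1573 to 3045), Gm3724 for Gabarapl2 (349 bases, 7 to 11 reads beside 371 to 558) and Gm6223 for Tmem41b (871 bases, 0 to 4 reads beside 206 to 320). Shorter or less similar stretches were shared by Atg2b with Cep112it (875 bases), Rb1cc1 with Gm13961 (564 bases), Atg2a with Fkbp5 (177 bases), Wipi2 with Gm25072 (140 bases) and Zfyve1 with several genes (up to 140 bases). The values of the members that share sequence are uncertain, and the reads on the copies do not bound how far, because reads that map to both places may have been left out.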

How the data were processed

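RNA-Seq libraries from the livers of 3 WT and 3 Vps15LKO mice were analysed, grouped by the labels. The authors used SOAPnuke to filter reads, HISAT2 with GRCm38 for mapping and featureCounts for counting. They normalised the counts and compared the groups with DESeq2, edgeR and limma voom, and the values used here are those normalised with DESeq2. Versions, and how the counting treated strand and multi-mapping reads, were not given in the sources used here. As deposited, each value is a normalised signal: a gene's read count over the size factor of its library. Every value above 0 (100% in each library) was a whole multiple of 1 read within 0.01, so whole reads were recovered. Symbols came from GENCODE M21, which matched 55227 of 56305 genes, and promoters from RefSeq.

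Genes with at least 20 normalised counts in at least 3 of 6 livers (15430) were compared on log2(normalised count + 1) with limma 3.58.1 (trend) in R 4.3.3, two-sided, with Benjamini–Hochberg adjustment over all of them. The log2(x + 1) scale understates changes of low genes. The members and lists were chosen with earlier results of these data known. The text names all 36 members, Pik3r4, Sqstm1 and, from each of the 4 pathway lists, the called genes with the largest rise and fall. Vps33a and the genes that share sequence with members were chosen after their values were seen, as were the genes of the closing observations. Paralog ratios were compared by an exact permutation test. In all, 21 alternatives were tried: pseudocounts of 0.1 and 10, other filters, TMM, upper-quartile, total-read and quantile scaling, limma without trend, 3 count-based tools on the recovered reads (limma voom, DESeq2 1.42.0 and edgeR 4.0.16), other fold thresholds, each liver left out, and replicate number as a block. Deviations from the group means of livers that share a number correlated at -0.0099, -0.0114 and 0.0485 over genes, so the numbers were not taken to pair livers. Tables and plots were made with Python 3.11.15, pandas 2.3.3 and matplotlib 3.10.9.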

Additional observations from a re-analysis of the deposited data

How the results depend on the processing

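The counts of members called lower (25) and higher (0) depended mainly on the scaling and the fold threshold. With total-read scaling 6 members were lower and 15 higher, with quantile normalisation 2 were higher, and with a fold threshold of 2 there were 6 lower. For the pathway genes (26 lower, 7 higher), upper-quartile scaling gave 17 lower and 11 higher, total-read scaling 2 and 33, and a fold threshold of 2 gave 2 and 0, while quantile normalisation gave 15 lower. With 1 liver left out, 21 to 25 members were lower and 0 higher, and 19 to 26 pathway genes were lower and 6 to 8 higher.

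Total-read scaling turned the direction of Atg2a (0.51), Tmem41b (0.34), Wipi1 (0.65), Wipi2 (0.066), Wdr45 (0.35), Wdr45b (0.22), Zfyve1 (0.25), Atg7 (0.39), Atg12 (0.65), Atg16l1 (0.22), Atg16l2 (0.51), Atg4a (0.21), Atg4b (0.54), Atg4c (0.21), Atg4d (0.041), Map1lc3a (0.49), Map1lc3b (0.50), Gabarap (0.68), Gabarapl2 (0.38), Snap29 (0.62), Vamp8 (0.44), Pik3r4 (0.19) and Ykt6 (0.45), as it adds about the same log2 shift to every gene. Quantile normalisation turned Atg2a (0.17), Atg12 (0.016), Map1lc3b (0.24), Gabarap (0.64), Snap29 (0.029) and Vamp8 (0.0770), and upper-quartile scaling turned Wipi1 (0.046), Atg12 (0.0518), Gabarap (0.075) and Snap29 (0.021). Calls were also lost by Tmem41b, Wdr45, Gabarapl2, Atg7 and Atg10 with upper-quartile scaling, by Wdr45, Zfyve1 and Atg7 with quantile normalisation, by Atg7 with limma without trend and by Atg10 with edgeR. For quantile normalisation the cause was not tested. With 1 liver left out, Vmp1 ran from -0.11 to 0.13, Wipi1 from -0.15 to 0.059, Gabarap from -0.14 to 0.017 and the ratio of Map1lc3a to Map1lc3b from -0.065 to 0.065.

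Gabarapl1, Atg3, Atg9a, Ulk2, Atg13 and Atg5 were called lower under every alternative except that Atg5 was not at the fold threshold of 2. With replicate number as a block, 25 members were lower and 0 higher, 25 pathway genes were lower and 7 higher, and no call of a named member changed. WT replicates 1 and 2 did not correlate best with the Vps15LKO liver of their own number, and the labels give no pairing. Atg9b (4 to 24 reads per liver) was under the filter of the fit, so that its ratio to Atg9a rests on few reads.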

Other observations

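In the list of upstream kinases and transcription factors, the catalytic subunits of AMPK moved in opposite directions with the deposited scaling. Prkaa1 rose by 0.56, from a mean of 326 ± 8.95 (SD, n = 3) normalised counts in WT to 480 ± 42.1 in Vps15LKO livers, and Prkaa2, the other one, fell by 0.81, from a mean of 1626 to 935. Among the transcription factors that act on autophagy and lysosomal genes, Tfe3 rose by 0.45 (from 895 to 1225), Tfeb (0.00, from 223 to 224) and Mitf (0.42, from 65.5 to 88.2) were not called, and the forkhead factors Foxo1 and Foxo3 fell by 0.82 (from 976 to 550) and by 0.69 (from 1375 to 852). With total-read scaling Prkaa1 and Tfe3 were called higher as before, Tfeb and Mitf were called higher, and Prkaa2, Foxo1 and Foxo3 were not called. These genes, apart from Prkaa1, were named after their values were seen.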
